A study of Mus musculus with 51 samples.

Results

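The genes described here encode the proteins of the cytosolic ribosome. They were taken as the genes whose array symbol is Rps or Rpl followed by a number, with or without a final a, x or y, together with Rpsa, Rplp0, Rplp1 and Rplp2, and without the paralogue Rpl39l. Only probe sets that name exactly 1 gene were used, and each gene was read from its probe set with the largest SD over the 51 arrays. This gave 42 of the 18194 genes measured, 20 of the small (40S) and 22 of the large (60S) subunit. The choice favours a probe set that moves, and 22 of the 42 genes had more than 1. A further 27 ribosomal protein genes lie only on probe sets shared by several genes, and of these Rpl10, Rpl36a, Rps27a and Rpl5 would otherwise have been followed by name.

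Every array held the amplified RNA of 1 single mouse oocyte or embryo. There were 3 metaphase II (MII) oocytes and 3 embryos from in vitro fertilisation (IVF) at each of 6 stages, all of strain B6D2F1. At the same stages there were 5 clones each, for which a B6CBF1 Sertoli cell had donated its nucleus to a B6D2F1 oocyte. The stages were the 1-cell embryo at 16 hours after sperm addition or activation, the 2-cell embryo at 32, the 4-cell embryo at 48, the 8-cell embryo at 62, the morula at 72 and the blastocyst at 84 hours, all cultured in KSOM medium. Sertoli cells support the germ cells of the testis, so the clones carried a male nucleus, whereas the sex of the IVF embryos is not given in the labels. The series compares gene expression of clones with that of fertilised embryos, and no factor other than origin, nuclear strain and stage is given. The nuclear strain goes with origin, so a difference of clones from IVF embryos cannot be told apart from one of strain. As all clones carried a male nucleus, a difference in the share of males cannot be told apart from one of origin either.

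A ribosome holds 1 copy of nearly every ribosomal protein, so the genes are usually expressed in parallel. Their mRNAs begin with a run of pyrimidines, the 5 prime TOP, through which mTOR and Larp1 control translation and mRNA stability. A growing mouse oocyte stores ribosomes and degrades many maternal mRNAs at maturation and after fertilisation, and the embryonic genome takes over at the 2-cell stage.

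Promoter sequences were searched for the pyrimidine run and are shown for 13 of the genes that the comparisons below turn on, 7 with the run over the annotated start and 6 without. RefSeq promoter windows of GRCm38.p6, from 250 bases before to 50 bases after the annotated start, were found for 37 of the 42 members (43 windows). A run of at least 5 C or T letters covered the annotated start in 13 of the 43 windows, or 30.2%, against 10.1% of all 32851 windows, and the longest held 21 letters. The lines below give 18 bases before the start and the first 12 bases from it, 5′ to 3′ on the gene's strand, with the run that covers the start in capitals.
Rpl7a: acaaTTCCCTCTTCTTTCTTTCTCCagcag
Rps24: gcccccgcgctggggTCCTTCCTTgcgcgt
Rps10: gctgcgccgcgcacgCCCCTTCCTTTCCag
Rps6: gttaagcggaagtcgggCCTCTTTTTCgtg
Rps9: ccaaccgccttgTCTCTCTTTgtctcgggc
Rps18: ttatacgtcacttccgCTCTCTCTTCCaca
Rpl35: agtcggccccgCCCTTTCCTCTTTCTCTCg
Rps15: cctcccggcagagctcgcgataactgcgca
Rpsa: gctgtgggttatttaaggacgtcatttccg
Rpl19: acgtgaccaaacgccctcactgcgcatgtg
Rpl6: tcttggtcacctcccgtcattgcttataga
Rpl37a: cacttccgctcgccggtctaaaaccgcgca
Rpl41: cgacacacgggccggctcggaagtgacgac
These windows lie at chr2:26910789-26910818 (plus strand) for Rpl7a, chr14:24490660-24490689 (plus) for Rps24, chr17:27635233-27635262 (minus) for Rps10, chr4:86857356-86857385 (minus) for Rps6, chr7:3704023-3704052 (plus) for Rps9, chr17:33955654-33955683 (minus) for Rps18, chr2:39005120-39005149 (minus) for Rpl35, chr10:80292413-80292442 (plus) for Rps15, chr9:120127748-120127777 (plus) for Rpsa, chr11:98026692-98026721 (plus) for Rpl19, chr5:121204483-121204512 (plus) for Rpl6, chr1:72711242-72711271 (plus) for Rpl37a and chr10:128549157-128549186 (minus) for Rpl41. The last 6 have no such run over the annotated start, and neither does the second window of Rpl19. The second window of Rps24, which is shown above through its window with the run, has none either. The letters CCGGAAG, searched on both strands as the core that ETS factors bind, were in 18 of the 43 windows (41.9%) and in 8.86% of all windows. The letters TATAAA were in 5 of the 43 windows (11.6%) and in 13.6% of all windows, and the searched motifs do not overlap each other. Single start positions of an annotation can be off by some bases, so these matches describe sequence only.

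The deposited values are log2 values centred on a baseline of each probe set, so they hold no level of a gene and only differences between arrays are read. Array measures that differ between the groups are given first. The mean of the bacterial hybridisation controls, a measure of the array and not of the embryo, ran from 0.61 to 1.27 in 2-cell clones against -0.72 to -0.23 in 2-cell IVF embryos, from 0.71 to 1.23 against -0.51 to -0.10 at the 4-cell stage and from -0.03 to 1.02 against -0.40 to -0.23 at the 8-cell stage. At the 1-cell stage clones of replicates 1 to 3 lay between -1.10 and -0.78, those of replicates 4 and 5 between 0.32 and 0.52, and the IVF embryos between 0.52 and 0.83. These IVF 1-cell embryos also lay apart from the oocytes, at -0.81 to -0.42, and from the IVF 2-cell embryos, so the controls move with the first steps of the IVF course too. For Gapdh, the value of the control probe set at the 3′ end minus that at the 5′ end, a sign of RNA quality, was -1.97 to -1.28 in IVF and -0.82 to 0.14 in clone blastocysts, and -2.49 to -0.92 in IVF and -0.77 to 0.63 in clone 4-cell embryos, without overlap. That of Actb overlapped between clones and IVF embryos at both stages but fell from -0.84 to -0.45 in IVF morulae to -2.75 to -1.98 in IVF blastocysts. The part of these measures in the results was not tested beyond the fits with the hybridisation controls as a covariate. The Y-linked gene Eif2s3y stood at 0.53, -5.48 and -5.38 in IVF 4-cell embryos and at 0.48 to 1.70 in 4-cell clones. In IVF 8-cell embryos it stood at -5.41, -5.50 and 2.20. Embryo sex was in no fit, and its part in the results was not tested. The array labelled 8-cell clone replicate 4 had Eif2s3y at -5.25, near the oocytes and unlike the other 8-cell clones, which goes against a male donor nucleus. This array alone was left out in the 8-cell comparison, the mean of the stages, and the clone steps to and from the 8-cell stage. It was also left out in the differences of these steps from the IVF steps. The count of members called stayed within 1.5 times in each. Other fits that include the array were not run without it alone. Amplification started from the poly(A) tail, so the amount of a transcript and the length of its tail cannot be told apart, and a change per embryo cannot be split into cell number and RNA per cell.

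In normal development the ribosomal protein transcripts rose together and steeply. The median over the 42 members was -6.15, -6.14 and -5.91 in the 3 oocytes, -5.24, -4.57 and -4.25 in IVF 1-cell embryos and -1.31, -1.10 and -0.73 in IVF 2-cell embryos, after which it lay between 0.02 and 0.06 in 4-cell embryos. No array of 1 of these stages overlapped the next. From the oocyte to the blastocyst 38 members rose and 1 fell in limma at an adjusted p under 0.05, against 25.9% of all genes higher and 39% lower. The median difference was 6.60 on the log2 scale, beside -0.08 for all genes, and 3.81 after a renewed quantile normalization. That normalization was run on the centred values, 1 probe set a gene, and forces the same spread around the baselines on every array. A smaller difference or a turned sign under it can come from that forcing, so its values show dependence on processing and are not corrected values. Of the 37 members that rose by more than 2 units between oocyte and 4-cell embryo, with rises from 2.70 to 10.41 and a median of 6.63 (99.0-fold), the median member had made 13.7% of its log2 rise by the 1-cell and 82.9% by the 2-cell stage. Clones of the 1-cell and 2-cell stages stood at 8.42% and 75.9% of the same rise, from oocyte to IVF 4-cell embryo.

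**Figure D1:**
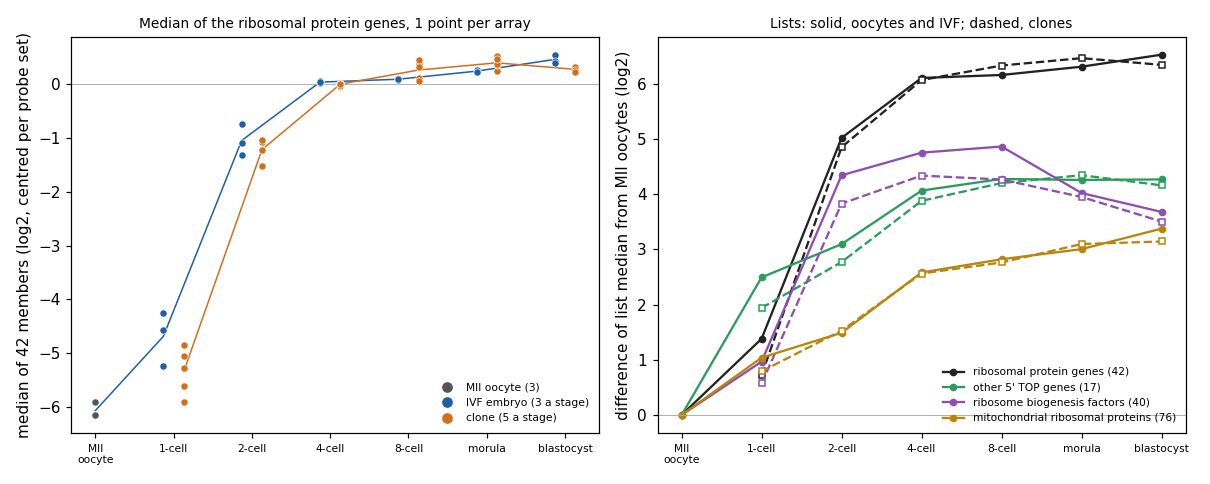
Course of ribosomal protein transcripts from MII oocyte to blastocyst. Left, the median of 42 members in each array (log2, relative to the baseline of each probe set) for oocytes, IVF embryos and clones; right, list medians minus the oocyte for ribosomal proteins, other 5 prime TOP genes, ribosome biogenesis factors and mitochondrial ribosomal proteins, solid for IVF embryos and dashed for clones. The members climb from about -6.07 in the oocyte mean to 0.04 in IVF 4-cell embryos and stay near that value.

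The members followed 1 course closely. Over the 13 group means, the Pearson r of a member with the median of the other members was above 0.9 for 36 and above 0.95 for 31 of 42, with a median of 0.973. It is given as a description, since all points come from the same arrays. Rpl38 (r = 0.996), whose loss alters the mouse axial skeleton, Rpl10a (0.995) and the 40S head protein gene Rps20 (0.995) were closest to the others. Rpl22 (r = -0.484), Rps16 (-0.270) and Rps27 (0.468) were farthest.

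The probe sets of Rps16, Rps27 and the exit tunnel protein gene Rpl39 barely moved at all. Their IVF and oocyte group means spanned 0.07, 0.16 and 0.30 units, against 10.66 for Rpl7, 10.36 for Rps18 and 9.37 for Rps9. Each of the 3 genes has a single probe set, and their SD over the 51 arrays was below 0.5, whereas 38 members had an SD above 1.5. Rps20 and Rps18, whose used probe sets had an SD of 2.76 and 3.47, also have probe sets with an SD of 0.02 and 0.10. A steady transcript and a probe set that does not respond therefore cannot be told apart here. Rps16 was the 1 member called lower in blastocysts than in oocytes, by -0.07 (adjusted p = 0.0109, limma). All genes had a median of -0.08 in this comparison, and after array centring (subtracting the median of an array) the Rps16 difference was -0.0023. The largest net rises were those of Rps18 with 10.36, Rpl7 with 10.02 and Rps9 with 9.37.

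**Figure D2:**
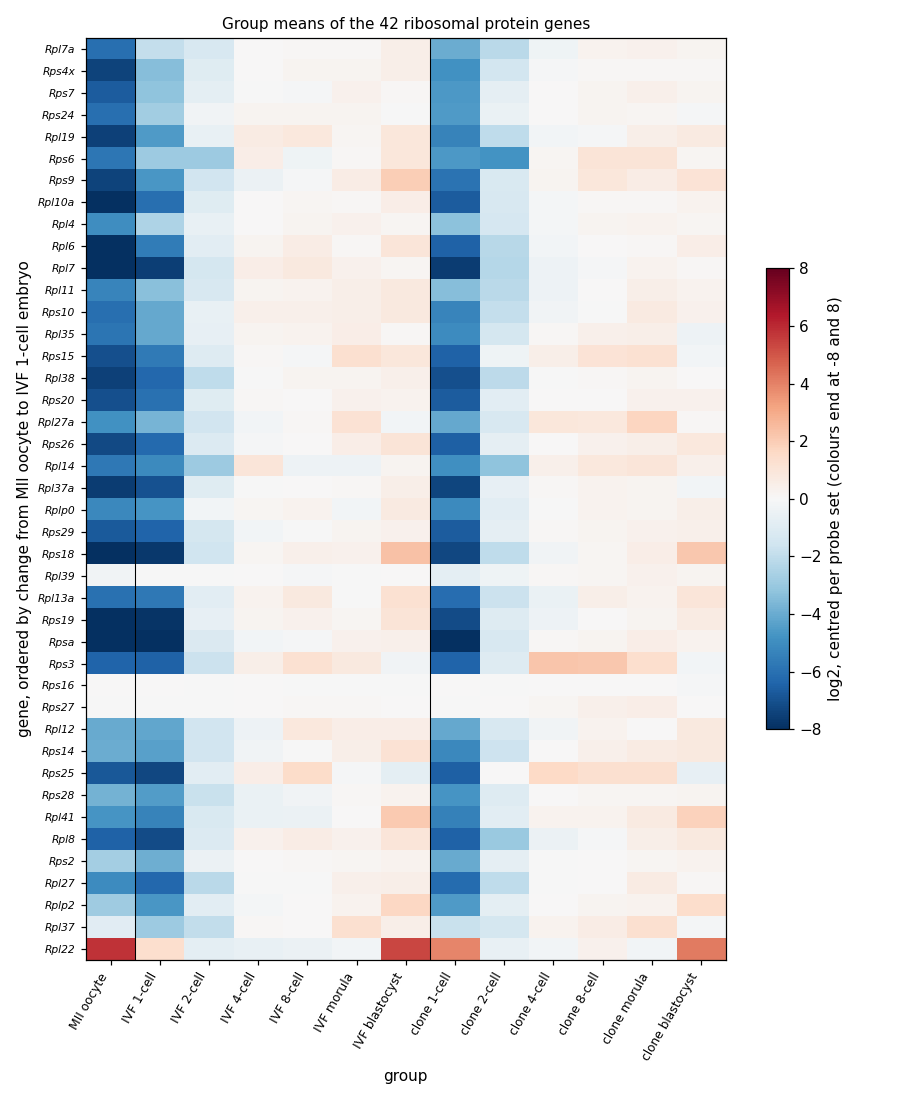
Group means of the 42 members (rows) in the 13 groups (columns), in log2 units on a colour scale from -8 to 8, ordered by the change from MII oocyte to IVF 1-cell embryo. Most rows turn from low in oocyte and 1-cell groups to near 0 from the 4-cell stage on, Rps16, Rps27 and Rpl39 are flat, and Rpl22 is high in oocytes and blastocysts.

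The first step took members both ways. Between oocyte and IVF 1-cell embryo 18 members rose and 6 fell, against 14.3% and 16.3% of all genes, with a median difference of 0.51, and 0.11 after the renewed quantile normalization. Rpl7a, which encodes a 60S protein (chromosome 2, 26910685 to 26913312, GRCm38.p6), stood at -6.37, -6.33 and -5.45 in oocytes and at -2.29, -1.72 and -1.69 in IVF 1-cell embryos. The X-linked 40S gene Rps4x went from -7.66, -7.28 and -7.21 to -3.89, -3.49 and -2.79. Rps7, another 40S gene, went from -7.00, -6.85 and -6.10 to -3.60, -3.15 and -2.94. None of these groups overlapped, and the differences were 4.15 ± 0.23 (SE, 17.8-fold, adjusted p = 1.68e-09, limma), 3.99 ± 0.26 (15.9-fold, 1.18e-08) and 3.42 ± 0.20 (10.7-fold, 3.14e-09). After the renewed normalization they were 2.32, 2.57 and 2.05. In 1-cell clones, whose step from the oocyte was not tested, the group means were -3.97 for Rpl7a, -4.84 for Rps4x and -4.61 for Rps7, also above the oocytes.

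Against that direction went the genes of the stalk protein Rplp2, which helps recruit elongation factors, and of the 60S protein Rpl37. Rplp2 fell from -2.95, -2.77 and -2.75 to -4.79, -4.55 and -4.55 (difference -1.80 ± 0.12, adjusted p = 1.75e-08, limma). Rpl37 fell from -1.06, -0.90 and -0.84 to -3.43, -3.29 and -2.07 (difference -2.0 ± 0.34, adjusted p = 0.000207). Both were thus lower in every IVF 1-cell embryo than in any oocyte, and 1-cell clones had means of -4.53 and -1.76. Rpl22 fell most, by 4.44 units (SE 0.26, adjusted p = 2.53e-09), in a probe set that is taken up further on.

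The largest step of the deposited values was that to the 2-cell stage. From the IVF 1-cell to the 2-cell embryo 37 members rose and 1 fell, against 17.2% and 18.7% of all genes, and for 30 of 42 members this was the largest step of the IVF course. The median difference was 3.64, and 1.54 of a net 3.81 after the renewed quantile normalization, which gave 1.18 for the next step and under which the sign turned for Rpl14, Rpl37 and Rpl7a. Rps19, a 40S head gene mutated in Diamond-Blackfan anaemia, stood at -8.34, -8.16 and -7.58 in oocytes, at -8.17, -7.77 and -7.59 in 1-cell and at -0.98, -0.54 and -0.41 in 2-cell embryos (difference 7.20 ± 0.19, 147-fold, adjusted p = 2.43e-13, limma). Rpsa, whose 40S protein is also known as the laminin receptor, stood at -8.45, -8.11 and -7.81, then -8.14, -8.13 and -7.85, then -1.43, -1.17 and -0.96 (difference 6.85 ± 0.14, 116-fold, adjusted p = 1.31e-14). For both genes the 1-cell embryos overlapped the oocytes and the 2-cell embryos were far above either. As there are no detection calls, these low early values cannot be told apart from a floor of the probe sets. The second Rpsa probe set was flat, with group means of 0.00 in oocytes, -0.04 in IVF 1-cell and -0.07 in IVF 2-cell embryos. Rps25, a 40S head gene, rose by 6.40 ± 0.51 (84.3-fold, adjusted p = 5.28e-08).

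A further rise followed. Between the 2-cell and 4-cell IVF embryos 31 members rose and none fell, against 10.5% and 13.3% of all genes (median difference 1.05). The count was 19 without IVF replicate 1 and 13 without replicate 2. Rps6, which encodes the 40S protein phosphorylated by S6 kinase, was late: it stood at -6.04, -5.89 and -5.42 in oocytes, at -4.16, -2.33 and -2.32 in 1-cell and at -4.06, -2.51 and -2.07 in 2-cell embryos. In 4-cell embryos it reached -0.06, 0.52 and 1.14 (difference from the 2-cell stage 3.41 ± 0.62, adjusted p = 0.000814, limma). The 60S gene Rpl14 likewise went from -4.63, -2.30 and -1.87 to 0.57, 0.81 and 1.61 (3.93 ± 0.63, adjusted p = 0.000265). Rps3, whose protein sits at the mRNA entry of the 40S subunit, had been at -6.46 to -6.41 in all oocytes and 1-cell embryos. It reached -3.25, -1.19 and -0.70 at the 2-cell and 0.20, 0.24 and 0.97 at the 4-cell stage (2.18 ± 0.53, adjusted p = 0.00696). Without detection calls, its even early values cannot be told apart from a floor of the probe set. The other Rps3 probe set that varied had group means of -6.97 in oocytes and -8.35, -1.34 and 0.09 in 1-cell, 2-cell and 4-cell IVF embryos.

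Fewer members were called after the 4-cell stage. Between the 4-cell and 8-cell IVF embryos no member passed limma's threshold, while 1 had an unadjusted p under 0.05, and 1.23% and 0.758% of all genes were called higher and lower. Between 8-cell embryo and morula Rpl37 (1.25 ± 0.34, adjusted p = 0.0163) and Rpsa (0.44 ± 0.14, 0.0427) rose and Rps25 fell (-1.56 ± 0.51, 0.0474), against 7.1% and 10.1% of all genes. The median was 0.07, and 0.28 after the renewed normalization, under which 16 were called. This count of 3 was 0 without IVF replicate 1 and 1 without replicate 2. Between morula and blastocyst 11 members rose and none fell, against 12.6% and 10.1% (median difference 0.22, and -0.05 after the renewed quantile normalization), and 6 were called without any 1 of the 3 IVF replicates. Rpl41, the smallest ribosomal protein gene, went from -0.15, 0.08 and 0.21 to 2.09, 2.10 and 2.18 (2.08 ± 0.25, adjusted p = 2.35e-05, limma). Rps18, a 40S head gene, went from 0.24, 0.37 and 0.51 to 2.19, 2.42 and 2.49 (1.99 ± 0.39, adjusted p = 0.00169). In both genes the blastocysts lay above every morula.

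Rpl22 stood apart through its probe set. Rpl22 is a 60S protein with the paralogue Rpl22l1 and is dispensable in most mouse tissues. The probe set used stood at 5.58, 5.85 and 5.95 in oocytes, 0.80, 1.40 and 1.85 in 1-cell, -1.05, -0.73 and -0.61 in 2-cell IVF embryos, -0.60, -0.09 and 0.00 in IVF morulae and 5.12, 5.22 and 5.69 in IVF blastocysts. It was called lower from oocyte to 1-cell and from 1-cell to 2-cell embryo (-2.15), and higher from morula to blastocyst (5.57 ± 0.26, adjusted p = 5.04e-10, limma). The other 2 probe sets of the gene had group means of -3.97 and -4.25 in oocytes, -5.67 and -6.24 in IVF 1-cell, -1.20 and -1.25 in 2-cell and 0.40 and 0.30 in blastocyst embryos, so that, apart from the first step, in which both fell while the median member rose, they ran with the other members. Values of Rpl22 therefore describe that probe set and are not read as those of all transcripts of the gene.

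**Figure D3:**
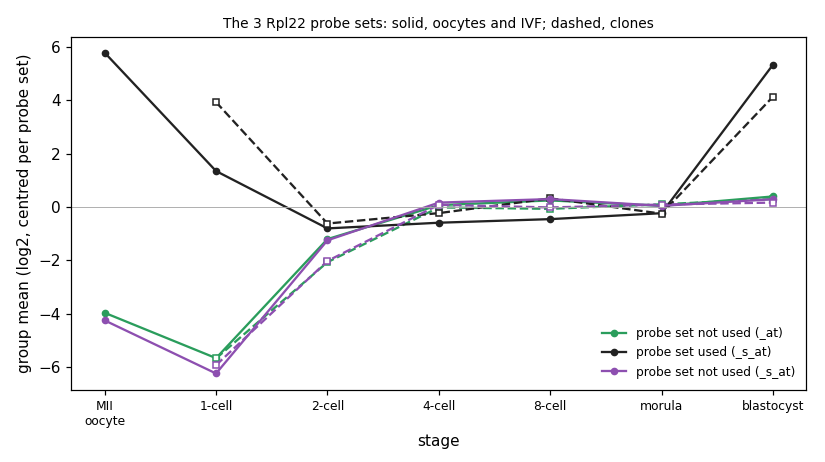
Group means of the 3 Rpl22 probe sets (log2, relative to each probe set's baseline) in oocytes, IVF embryos and clones by stage. The probe set used is high in oocytes (5.79) and IVF blastocysts (5.34), whereas the other 2 are low in oocytes and near 0 from the 4-cell stage.

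Among the remaining 52 probe sets of the members, 37 had an SD above 1, and in 35 of these the change from oocyte to IVF 4-cell embryo had the sign of the probe set used. The exceptions were the other 2 of Rpl22. The 15 with an SD of 1 or less were not counted. A limit on the SD keeps probe sets that move between these stages, so this agreement is a description and no independent support. The second Rps6 probe set had an SD of 0.71, so the course of Rps6 rests on 1 probe set. The 110 probe sets that share a ribosomal protein gene with other genes, which were no members, had a median net change of 5.49, above 0 in 98 of 110.

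Clones ran through the same steps. From the 1-cell to the 2-cell clone 36 members rose and 1 fell, against 16.7% and 24.6% of all genes, with a median difference of 3.82 (1.59 after the renewed quantile normalization, under which the sign of Rpl11, Rpl14 and Rpl7a turned). Rpsa rose by 6.89 and Rpl37a by 6.65 (adjusted p = 2.17e-26, limma), while the Rpl22 probe set fell by 4.55. From the 2-cell to the 4-cell clone 36 members rose and none fell, against 15.1% and 14.7% (median 1.27), led by Rps6 with 4.93 and Rpl14 with 3.65. Rpl13a (0.98, adjusted p = 0.00402) and Rpl7a (0.61, 0.0255) were the 2 called from the 4-cell to the 8-cell clone, where 2.33% and 4.17% of all genes were called and the count was 1 without clone replicate 2, 3 or 4 and 12 after the renewed normalization, with a median of 0.48 instead of 0.25. From 8-cell clone to morula 3 members rose, Rps10 (0.74, adjusted p = 0.00467) and Rpl37 (0.66, 0.0109) the most, against 9.81% and 7.61% of all genes, and 1 was called without replicate 5 and 7 after the renewed normalization, with a median of 0.04 instead of 0.10.

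From clone morula to clone blastocyst 5 members were called higher and 9 lower, shares near the 16.9% and 17.6% of all genes. The median difference was -0.07, with -0.01 after array centring and -0.31 after the renewed quantile normalization, and the call of Rps16 among the 9 went from -0.07 to -0.0059 after centring. The Rpl22 probe set (4.39) and Rps18 (1.62) rose most, and Rps25 (-1.93, adjusted p = 0.00913, limma) and Rpl27a (-1.62, 0.00588) fell most. The clone step was below the IVF step in 37 of 42 members, with a median difference of the steps of -0.40. No member passed limma's threshold for that difference, 6 had an unadjusted p under 0.05, and 0.984% and 0.638% of all genes were called higher and lower.

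Clones and IVF embryos were then compared stage by stage, each with 5 clones and 3 IVF embryos. A positive difference means higher in clones. Members called are counted stage by stage, beside the share of all genes called at that stage. Rpl37a, Rpl41 and Rps6 were called both ways at different stages. The p-values measure the spread between single embryos, for which the labels name no shared litter, oocyte pool or day.

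**Figure D4:**
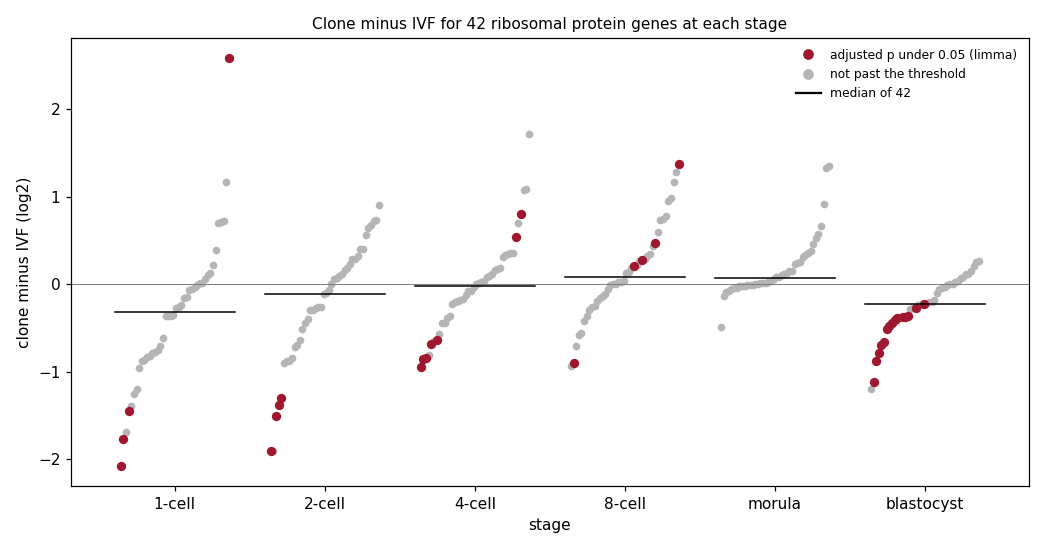
Difference between clones and IVF embryos (log2, clone minus IVF) for each of the 42 members at the 6 stages, with members past the limma threshold in red and the median as a black line. Few members are called before the blastocyst, where 15 are called lower and none higher.

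At the 1-cell stage, when the members had begun to rise in IVF embryos, 3 were lower and 1 was higher in clones, against 2.79% and 3.52% of all genes. In 5 members all clones lay below all IVF embryos and in 2 above, against 7.23% and 7.54% of all genes. Rpl7a stood at -4.48, -4.43, -3.73, -3.66 and -3.55 in clones and at -2.29, -1.72 and -1.69 in IVF embryos (difference -2.07 ± 0.29, 4.2-fold, adjusted p = 0.0123, limma). Rps24, a 40S gene, stood at -5.04, -4.75, -4.72, -4.28 and -3.82 against -2.92, -2.69 and -2.68 (-1.76 ± 0.28, 3.39-fold, adjusted p = 0.0169). For Rps4x the clones were at -5.18, -4.97, -4.79, -4.75 and -4.53 and the IVF embryos at -3.89, -3.49 and -2.79 (-1.45 ± 0.26, 2.73-fold, adjusted p = 0.0276). Every clone thus lay between the oocytes and the IVF embryos in these 3 genes.

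The gene higher in 1-cell clones was Rpl22 in the probe set used, at 3.25, 3.64, 3.90, 4.41 and 4.49 against 0.80, 1.40 and 1.85 (2.59 ± 0.37, 6.0-fold, adjusted p = 0.0127, limma). Its other 2 probe sets had means of -5.68 and -5.93 in clones and -5.67 and -6.24 in IVF embryos. The median difference over all members was -0.31, with a share near that of all genes called. The count of 4 fell to 1 without IVF replicate 2, to 1 with the hybridisation controls as a covariate and to 0 without clones of replicates 1 to 3, and 3 of 10 oocyte markers were higher in the clones, whose part in these differences was not tested.

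At the 2-cell stage 4 members were lower and none higher in clones, against 1.86% and 0.506% of all genes. All clones lay below all IVF embryos in 10 members and above in 3, against 7.89% and 4.03%. Rpl8, whose protein lies at the peptidyl transferase centre, stood at -3.26, -2.99, -2.98, -2.88 and -2.74 in clones and at -1.32, -1.15 and -0.72 in IVF embryos (-1.91 ± 0.17, 3.75-fold, adjusted p = 0.00651, limma). Rpl19, a gene of an exit tunnel protein (chromosome 11, 98022003 to 98030493), stood at -2.54, -2.20, -2.02, -1.93 and -1.61 against -0.86, -0.63 and -0.20 (-1.50 ± 0.24, 2.83-fold, adjusted p = 0.0338).

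In the same embryos Rpl6, a 60S gene, was at -2.75, -2.39, -2.27, -1.90 and -1.71 in clones against -1.05, -0.84 and -0.58 (-1.38 ± 0.25, 2.6-fold, adjusted p = 0.0482, limma). Rps10, a gene of the 40S head, was at -2.34, -2.21, -1.77, -1.66 and -1.60 against -0.77, -0.59 and -0.49 (-1.30 ± 0.20, 2.46-fold, adjusted p = 0.0304). None of the 4 genes overlapped between groups. The median over all members was -0.11, and 0.04 after the renewed quantile normalization. Rpl8 was called with each array left out in turn, and without IVF replicate 1, 2 or 3 or clone replicate 2, 3, 4 or 5 only 1 or 2 members were called. With the hybridisation controls as a covariate, which differ between the groups here, none was called.

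The step from 1 to 2 cells itself differed between clones and IVF embryos in 9 members, 6 with the larger rise in clones and 3 with the smaller, against 3.96% and 7.24% of all genes. Rpl8 rose by 6.12 in IVF embryos and by 3.51 in clones (difference -2.61, adjusted p = 2.5e-11, limma). Clones rose further in Rps24, by 4.00 against 2.50 (1.49, adjusted p = 0.000166), and in Rps9, a gene of the mRNA entry site, by 4.71 against 3.13 (1.58, adjusted p = 0.017). Both had lower group means in 1-cell clones than in IVF embryos. The Rpl22 probe set fell further in clones (-2.40, adjusted p = 0.00299). The count was 5 without the embryos of replicate 1, 3 without those of replicate 2 and 15 without 1-cell clones of replicates 4 and 5.

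At the 4-cell stage 5 members were lower and 2 higher in clones, against 1.8% and 0.462% of all genes, with all clones below in 10 and above in 9 members (7.37% and 3.69% of all genes). The median was -0.01. Rpl19 stood at -0.37, -0.26, -0.24, -0.14 and -0.06 in clones and at 0.57, 0.66 and 0.70 in IVF embryos (-0.86 ± 0.07, 1.81-fold, adjusted p = 0.00516, limma). The 60S gene Rpl7 stood at -0.63, -0.46, -0.34, -0.32 and -0.18 against 0.52, 0.53 and 0.61 (-0.94 ± 0.10, 1.92-fold, adjusted p = 0.00979).

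Rpl8 was again lower, at -0.73, -0.54, -0.51, -0.39 and -0.24 against 0.34, 0.38 and 0.38 (-0.85 ± 0.11, 1.8-fold, adjusted p = 0.0136, limma). So was Rps10, at -0.56, -0.35, -0.31, -0.24 and -0.01 against 0.35, 0.37 and 0.46 (-0.69 ± 0.12, 1.61-fold, adjusted p = 0.0366). Rpl8, Rpl19 and Rps10 were thus called lower at both stages, by less at the 4-cell stage. For Rpl8 the rise from 2 to 4 cells was larger in clones (1.06, adjusted p = 0.00393), the 1 member called in that difference of steps, where 1.45% and 1.19% of all genes were called. It was not called without replicate 3.

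Higher in 4-cell clones were Rps28, whose protein sits at the mRNA exit of the 40S subunit, and Rpl41. Rps28 stood at -0.03, 0.01, 0.03, 0.08 and 0.09 in clones and at -0.51 in all 3 IVF embryos (0.55 ± 0.04, 1.46-fold, adjusted p = 0.00256, limma). Rpl41 stood at 0.03, 0.27, 0.31, 0.36 and 0.38 against -0.64, -0.58 and -0.38 (0.80 ± 0.10, 1.74-fold, adjusted p = 0.0134). Rpl19, Rpl7 and Rps28 were called with each array left out in turn, while the count of 7 fell to 3 without IVF replicate 2. No member was called with the hybridisation controls as a covariate, and 3 of 6 inner cell mass markers were lower in these clones, where the Gapdh controls also lay apart, and the part of both in the result was not tested.

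At the 8-cell stage the balance turned, with 4 members higher and 1 lower in clones, against 2.15% and 4.47% of all genes. All clones lay above all IVF embryos in 10 members and below in 5, against 37.1% and 11.2%, so fewer members than genes at large stood apart on the higher side, a difference that was not tested. Rps6 stood at 0.73, 0.86, 0.88, 1.12 and 1.68 in clones and at -0.78, -0.13 and -0.06 in IVF embryos (1.38 ± 0.27, 2.6-fold, adjusted p = 0.0363, limma). Rps28 stood at 0.11, 0.11, 0.11, 0.17 and 0.33 against -0.45, -0.26 and -0.21 (0.47 ± 0.08, 1.39-fold, adjusted p = 0.0224). The 40S head gene Rps29 stood at 0.14, 0.23, 0.26, 0.30 and 0.31 against -0.09, -0.01 and 0.00 (0.28 ± 0.05, 1.21-fold, adjusted p = 0.0249).

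The 60S gene Rpl37a was higher by a small step, at 0.22, 0.24, 0.28, 0.31 and 0.31 against 0.05, 0.06 and 0.07 (0.21 ± 0.03, 1.16-fold, adjusted p = 0.018, limma). Rpl7 stayed lower, at -0.42, -0.29, 0.08, 0.08 and 0.13 against 0.75, 0.76 and 0.92 (-0.89 ± 0.15, 1.86-fold, adjusted p = 0.0241). The median over the members was 0.08, beside 0.04 for all genes, and was 0.05 after array centring and 0.31 after the renewed quantile normalization. No member was called by limma in the difference of the steps from 4 to 8 cells, 2 had an unadjusted p under 0.05, and 0.286% and 1.03% of all genes were called higher and lower. The count of 5 was 1 without IVF replicate 1 or 2, 0 without IVF replicate 3 and with the hybridisation controls as a covariate, 3 without clone replicate 3 and 8 without clone replicate 5. Of the markers, 5 of 6 of the inner cell mass and 3 of 10 of the oocyte were lower in 8-cell clones, and their part in these values was not tested.

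In morulae no member passed the threshold in limma, 7 had an unadjusted p under 0.05, and 0.0769% and 0.0879% of all genes were called higher and lower. Without any 1 array the count stayed at 0. All clones lay above all IVF embryos in 6 members and below in none, against 4.52% and 3.99% of all genes, and the median was 0.07. The smallest p-values were those of Rpl14, at 0.71, 0.72, 1.04, 1.11 and 1.24 in clones and -0.90, -0.22 and -0.07 in IVF embryos (1.36 ± 0.22, adjusted p = 0.0798), and of Rps10, at 0.64, 0.70, 0.72, 0.79 and 0.81 against 0.35, 0.53 and 0.57 (0.25 ± 0.06, adjusted p = 0.226). Rps10 was here above the IVF embryos, after 2 stages called below them. In the step from the 8-cell embryo to the morula Rpl8 rose more in clones (0.82, adjusted p = 0.0191), the 1 member called where 4.28% and 1.38% of all genes were, and it was not called without replicate 1, 3 or 5.

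At the blastocyst stage 15 of the 42 members were lower in clones, 30 lay below 0 and 12 above. The median over the 42 members was 0.22, 0.25, 0.26, 0.32 and 0.32 in the 5 clones and 0.40, 0.43 and 0.55 in the 3 IVF embryos, so no clone reached the lowest IVF embryo. In limma the 15 were lower and none was higher, against 3.34% and 2.84% of all genes. All clones lay below all IVF embryos in 23 of 42 members and above in 1, against 9.94% and 6.34%. The median difference was -0.23, beside -0.01 for all genes, and the 15 ranged from -1.11 to -0.23.

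The small subunit gave 6 of the 15, with a median of -0.08 over its 20 members. Rps15, whose protein reaches toward the decoding site from the 40S head (chromosome 10, 80292431 to 80294114), stood at -0.36, -0.35, -0.15, -0.14 and -0.06 in clones and at 0.68, 0.94 and 1.08 in IVF embryos (-1.11 ± 0.11, 2.16-fold, adjusted p = 0.00606, limma). Rps9 stood at 0.77, 1.04, 1.17, 1.18 and 1.25 against 1.68, 2.08 and 2.11 (-0.87 ± 0.14, 1.83-fold, adjusted p = 0.021). Rps6 stood at 0.00, 0.03, 0.16, 0.17 and 0.29 against 0.83, 0.92 and 0.99 (-0.78 ± 0.07, 1.72-fold, adjusted p = 0.00554). Every clone was below every IVF embryo in the 3 genes. The second Rps15 probe set fell alike, from a mean of 1.24 in IVF embryos to 0.01 in clones. The other 2 of Rps9 did not, with means of 0.03 and 1.24 in IVF embryos and 0.04 and 2.30 in clones, and the flat second one of Rps6 was at -0.02 and -0.14. Rps10, Rps19 and Rps14 followed with differences of -0.45, -0.38 and -0.37.

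The large subunit gave 9, with a median of -0.25 over its 22 members. Rpl37a stood at -0.32, -0.25, -0.23, -0.21 and -0.10 in clones and at 0.36, 0.47 and 0.58 in IVF embryos (-0.69 ± 0.06, 1.61-fold, adjusted p = 0.005, limma), the opposite of its difference in 8-cell embryos. Rpl37 (-0.66), the exit tunnel gene Rpl35 (-0.51) and Rpl11 (-0.48), whose protein binds Mdm2 together with 5S rRNA when ribosome assembly fails, were next. Rpl6 (-0.40), Rpl27 (-0.37), Rpl38 (-0.36), Rpl41 (-0.27) and Rpl10a (-0.23) completed the set. Of the 3 other probe sets of Rpl41, 2 had higher means in clones (1.24 against 0.85 and 0.90 against 0.58) and 1 a lower mean (0.20 against 0.43).

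Of the 15, 8 were called in every run with 1 array left out: Rpl11, Rpl35, Rpl37, Rpl37a, Rpl38, Rpl41, Rps15 and Rps6. The count was 8 without IVF replicate 1 or 3, 6 with the hybridisation controls as a covariate (Rpl11, Rpl37, Rpl37a, Rpl38, Rps15 and Rps6) and 1, Rpl37a, when all 51 arrays shared 1 estimate of the spread. The hybridisation controls ran from -1.29 to -1.09 in clone and from -1.26 to -0.67 in IVF blastocysts, and 1 of 6 inner cell mass markers was lower, 1 of 5 primitive endoderm markers higher and none of 8 trophectoderm markers called in clones. The Gapdh 3′ and 5′ controls separated the same groups. Their part in the result was not tested. Of the 52 probe sets not used, 33 were below 0 in this comparison (median -0.09), and of the 110 shared with other genes 88 were (median -0.17).

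**Figure D5:**
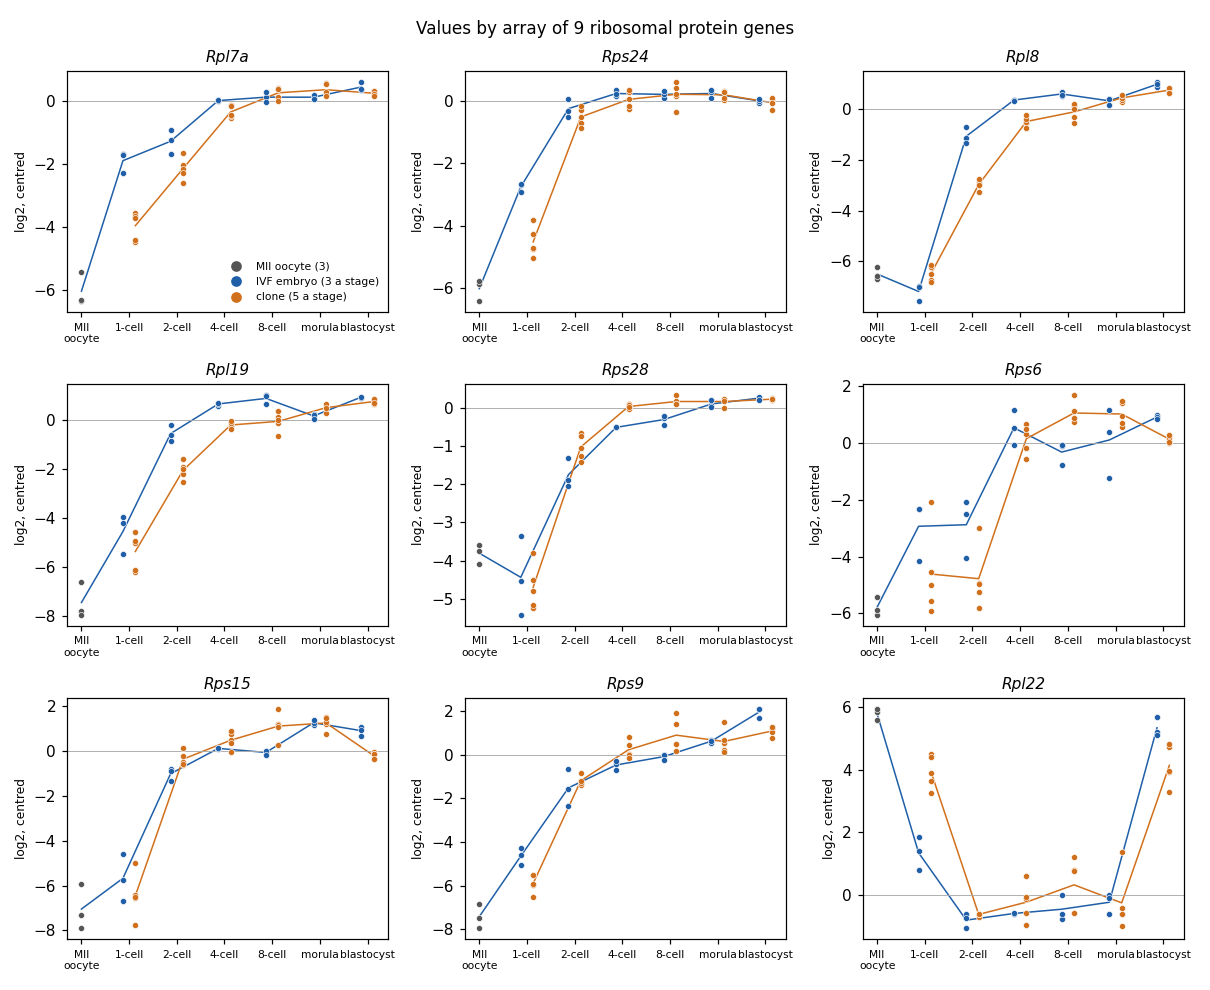
Values by array (log2, relative to each probe set's baseline) of 9 members in oocytes, IVF embryos and clones from the 1-cell stage to the blastocyst. Rpl7a and Rps24 are lower in all 1-cell clones, Rpl8 and Rpl19 in all 2-cell and 4-cell clones, and Rps15, Rps9 and Rps6 in all clone blastocysts, where Rps6 had been higher in 8-cell clones.

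Averaged over the 6 stages, 12 members were lower and 4 higher in clones, against 14% and 6.12% of all genes. The median was -0.08, and 0.05 after the renewed quantile normalization. Rpl19 (-0.66, adjusted p = 2.67e-05, limma), Rps10 (-0.63, 3.66e-06), Rpl6 (-0.61, 2.59e-05) and Rpl7a (-0.52, 3.21e-06) were lowest. Rps3 (0.67, adjusted p = 0.00478), Rps25 (0.66, 0.0454), Rpl41 (0.38, 0.0014) and Rpl37 (0.31, 0.0284) were higher. In 6 runs that left arrays out, Rps3 was called in 6, Rpl41 in 5, Rpl37 in 3 and Rps25 in 2. Rps3 and Rps25 were called at no single stage. The other Rps3 probe set that varied had higher clone means at the 1-cell, 2-cell, 8-cell and morula stages. Its clone means were lower at the 4-cell stage (-0.11 against 0.09) and in blastocysts (0.27 against 0.51). The probe set used had 2.19 against 0.47 at the 4-cell stage. Of the 12 lower members 9 belong to the 60S and 3 to the 40S subunit.

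Single roles within the ribosome were read from short lists. The stalk and its base (Rplp0, Rplp2 and Rpl12) had no member called at any clone stage, and Rplp0, which anchors the stalk, differed by -0.37, -0.64, -0.17, 0.04, 0.47 and -0.29 from the 1-cell stage to the blastocyst. Of the 4 exit tunnel genes Rpl19 was lower at the 2-cell and 4-cell stages and Rpl35 in blastocysts, while 3 were lower in the mean of the stages. Rpl11, the 1 measured gene of the 5S RNP, differed by -0.06, -0.90, -0.63, -0.25, -0.01 and -0.48, and was called at the 4-cell and blastocyst stages.

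Among the 10 genes of the 40S head 3 were lower in clone blastocysts, with a list median of -0.02. Rpsa differed by -0.15, -0.11, 0.33, 0.33, 0.15 and -0.10 and was called at no stage. The 2 X-linked members were Rps4x, at -1.45, -0.51, -0.18, -0.15, -0.13 and -0.38 and called at the 1-cell stage, and Rpl39, at -0.75, -0.29, 0.03, 0.23, 0.36 and 0.21 and never called. The part of embryo sex in the values of these X-linked genes was not tested. Rps6 changed sign over the stages, with -1.68, -1.90, -0.38, 1.38, 0.91 and -0.78. Over the stages Rps10 was called lower at 3, and Rpl6, Rpl7, Rpl8, Rpl11 and Rpl19 at 2. The calls of Rps10 in blastocysts and of Rpl6 at the 2-cell stage were lost in all 8 runs with 1 array left out.

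Other genes of the same machinery give the setting. Over all genes, 25.9% were higher and 39% lower in IVF blastocysts than in oocytes, and 14.3% were higher in IVF 1-cell embryos than in oocytes. From oocyte to IVF blastocyst 16 of 17 other 5 prime TOP genes, which encode elongation and initiation factors among others, rose and 1 fell (median 4.78), and 11 of them had already risen by the 1-cell stage with a median of 1.99, beside 0.51 for the ribosomal proteins (0.11 after the renewed quantile normalization, not computed for the TOP list). Nucleolar biogenesis factors rose in 33 and fell in 1 of 40 (median 3.65), mitochondrial ribosomal proteins rose in 63 and fell in 6 of 76 (3.20), and chaperones of ribosomal proteins rose in 8 and fell in 1 of 10 (2.84). Genes listed for the control of ribosomal protein synthesis, such as Mtor, Larp1 and Myc, rose in 9 and fell in 6 of 16. This list also holds Pdk1, in mouse the symbol of a pyruvate dehydrogenase kinase, which does not belong to that control. Of the paralogues and fusions outside the rule 5 of 7 rose.

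In the mean of the 6 stages 14% of all genes were lower and 6.12% higher in clones. Of the 40 biogenesis factors 21 were lower and 3 higher (median -0.39). Lower and higher were 8 and 3 of the 17 TOP genes (-0.26), 6 and none of the 16 control genes (-0.27), 16 and 6 of the 76 mitochondrial ribosomal proteins (-0.09), 4 and 1 of the 10 chaperones (-0.15) and 3 and none of the 7 paralogues (-0.18). In blastocysts 10 of the 76 mitochondrial ribosomal protein genes were lower and 1 higher, against 3.34% and 2.84% of all genes. Their median was -0.21, close to the -0.23 of the cytosolic members. Differences between these lists were not tested.

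Markers of cells that could have travelled with an embryo were counted in the same comparisons. None of 14 Sertoli, 9 cumulus and 8 sperm markers was called higher in clones from the 1-cell to the 8-cell stage, 1 Sertoli marker was lower in 8-cell clones, and 1 was higher in morulae and in blastocysts.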

How the data were processed

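Biotin-labelled cRNA from 51 single oocytes and embryos was hybridised to Affymetrix arrays after a 2-cycle amplification, per the labels' protocols. The deposited log2 values were made by the authors with RMA, per the submitters' processing notes. The log base is not given in the sources used here and was taken from the values, whose widest span over arrays was 13.8 units. They are centred for each probe set: 94.3% of probe sets have a single array at 0. Centred values carry no absolute level and no detection call, and the number of arrays limits the precision. All 51 columns were used, in the groups of the labels.

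From these values, 24 comparisons were fitted over 18194 genes with the lmFit and eBayes functions of limma 3.58.1 under R 4.3.3, with 1 probe set for each gene and Benjamini-Hochberg adjustment over all of them at a threshold of 0.05. Clones were compared with IVF embryos within the 8 arrays of a stage, and in the mean of 6 stages over 48 arrays. Steps of the IVF course used 21 arrays, steps of the clone course 30, and the difference of a clone step from the IVF step all 51. Differences are given with limma's standard error, folds as 2 to the power of the log2 difference. The fit was tested on simulated data. Same-numbered embryos had residual correlations from -0.204 to 0.102, so numbers did not pair embryos.

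The members and the lists (subunits, stalk, 5S RNP, exit tunnel, 40S head, X-linked members, paralogues, other TOP genes, control genes, biogenesis factors, chaperones, mitochondrial ribosomal proteins and markers of 7 cell types) were chosen with earlier results of these data known. Genes named are up to 4 members with the largest rise and 4 with the largest fall past the threshold in each clone comparison, or the 2 with the smallest p where under 2 passed, up to 3 each way in IVF steps, up to 2 each way in clone steps and their differences, and the genes with the extreme courses. Rplp0, Rpsa, Rps6, Rpl39, Rps4x and Rpl11 were followed throughout, and Rpl10, Rpl36a, Rps27a and Rpl5 could not be. Other members appear where a sentence lists all called. Gene positions and promoter sequences are from RefSeq, GRCm38.p6. The alternatives were a renewed quantile normalization of the centred values, array centring, probe sets with the suffixes _x_at and _s_at left out, and the mean of all probe sets of a gene. Further ones were a filter on the 30% of genes with the lowest SD, the hybridisation controls as a covariate, a fit of all 51 arrays, the replicate number as a block, and single arrays left out.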

Additional observations from a re-analysis of the deposited data

Results flagged for a closer look

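In 8-cell clones Rps28 was far higher in replicate 2, at 0.33, than in the other 4 clones, at 0.11 to 0.17. It was the 1 of 31 groups of 5 clones tested in which a sample stood apart by that measure, and chance alone gives about 1 in 20. In the step from the 1-cell to the 2-cell stage clones and IVF embryos differed, by limma's test of the difference itself, in 9 members. The rise was smaller in clones for Rpl8 (-2.61) and Rps19 (-1.11), and the fall of the Rpl22 probe set was deeper (-2.40). It was larger in clones for Rps9 (1.58), Rps24 (1.49), Rps7 (1.45), Rpl7a (1.20), Rps29 (0.97) and Rps4x (0.95). Rpl8 also differed in the step from 2 to 4 cells (1.06) and in that from the 8-cell stage to the morula (0.82), both with the larger value in clones.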

How the results depend on the processing

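The values below are counts of the 42 members called in limma. The share of all genes called under each alternative is not given here, so a changed count is not read as particular to the members. Beside leaving out replicates, 180 alternatives were run over 24 comparisons, and 145 gave a count within 1.5 times the reported one. Centring each array on its median turned no sign of 300 calls, and the renewed quantile normalization turned 6, all in the step from 1 to 2 cells and named there. Without probe sets ending in _x_at or _s_at, 2 members were called between clones and IVF embryos at the 1-cell and 3 at the 8-cell stage. With the hybridisation controls as a covariate, 1 was called at the 1-cell stage, 0 at the 2-cell, 4-cell and 8-cell stages and 6 in blastocysts, 1 in the IVF step to the morula and 3 in that to the blastocyst, 5 in each of these clone steps, and 4 in the difference of the steps from 1 to 2 cells. When all 51 arrays shared 1 fit, 15 were called at the 1-cell stage, 12 at the 2-cell stage and 1 in blastocysts. The renewed quantile normalization gave 2 at the 2-cell stage, 16 in the IVF and 7 in the clone step to the morula, 12 in the clone step from 4 to 8 cells, and 3, 0, 1, 6 and 1 in the 5 differences of steps in order of stage. The median of the differences in the step from 8-cell embryo to morula was 0.01, and -0.25 under it. Without the 30% of genes of smallest SD, 3 were called at the 8-cell stage and 0 in the difference of the steps to the morula. The mean of all probe sets of a gene gave 2 at the 8-cell stage and 6 in the IVF step to the morula. As alternatives chosen after seeing the data, 0 were called at the 1-cell stage without clones of replicates 1 to 3, and 15 in the difference of the steps from 1 to 2 cells without those of replicates 4 and 5. The cause of these changes was not tested.

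With the replicate number as a block, to which clones of replicates 4 and 5 add nothing as they have no IVF partner, 0 members were called at the 1-cell, 2-cell, 4-cell, 8-cell and blastocyst stages. The numbers name single embryos and are not a pairing.

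Leaving out 1 replicate in turn gave 91 of 124 counts within 1.5 times. The counts ran from 1 to 5 at the 1-cell, 1 to 3 at the 2-cell, 3 to 8 at the 4-cell and 0 to 8 at the 8-cell stage and from 8 to 14 in blastocysts. In IVF steps they ran from 13 to 29 from 2 to 4 cells, from 0 to 2 to the morula, and were 6 in each case to the blastocyst. In clone steps they ran from 1 to 3 from 4 to 8 cells and from 1 to 4 to the morula. In differences of steps they ran from 3 to 11 from 1 to 2 cells, from 0 to 1 from 2 to 4 cells and from 0 to 1 to the morula. With 3 IVF embryos a stage and no detection calls, a call that was missed does not show that clones and IVF embryos were alike.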
